A study of Arabidopsis thaliana with 8 samples.

Results

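The 6 genes described here are PYK10, the jacalin-related lectin genes JAL22, JAL23, JAL33 and JAL34, and the glucosinolate transporter gene GTR2, out of 13286 Arabidopsis thaliana genes that were paired with a probe set on the arrays. They were picked by name through the probe set annotation, with their values across the genotypes already known, so their levels are given as a description and carry no test. RNA came from vegetative shoot apices of plants grown for 20 days in short days, and each of the 4 genotypes was measured on 2 Affymetrix ATH1 arrays. Col-0 is the wild-type accession. se-1 and ago1-27 carry hypomorphic lesions in SERRATE (SE), which acts in microRNA processing, and ARGONAUTE1 (AGO1), which binds microRNAs. The line se-1 p35S::MIR156 holds the same se-1 lesion and a transgene that drives a miR156 precursor from the broadly active 35S promoter of a plant virus, so it has no counterpart with the transgene alone among these arrays. The labels do not say whether the 2 arrays of a genotype came from separate plantings, nor how many apices were pooled.

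ER bodies are spindle-shaped compartments of the endoplasmic reticulum found in Brassicaceae and their relatives, and they store beta-glucosidases, of which PYK10 is the main one in roots and young seedlings. When a cell is broken, PYK10 meets its glucoside substrates and gathers into large complexes with jacalin-related lectins, carbohydrate-binding proteins from outside the ER body. JAL33 and JAL34 belong to the lectins described as enlarging these complexes, and JAL22 and JAL23 to those described as limiting their size. Glucosinolates are sulphur-rich defence glucosides of the same plants, and GTR2, a proton-coupled importer of the plasma membrane, acts with GTR1 in moving them between organs through the phloem.

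Of the 6 genes, 5 were lowest in ago1-27 and intermediate in se-1, and with the transgene they stood at or above the Col-0 level. JAL23 was the exception and had its lowest mean in Col-0. Signals are linear probe set intensities in arbitrary units that the authors scaled to a common trimmed mean per array, and a level is compared only within a gene. In bulk tissue a smaller share of cells that express a gene and less RNA in each of these cells cannot be told apart.

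PYK10 (AT3G09260, chromosome 3, 2840477 to 2843781 in TAIR10.1) gave signals of 1648 and 1678 in Col-0 and 123 and 211 in ago1-27. The se-1 arrays read 639 and 933. Those of se-1 p35S::MIR156 read 1545 and 2337. The Col-0 arrays lay within 1.02-fold of each other, while the higher array was 1.46-fold the lower for se-1, 1.51-fold with the transgene and 1.71-fold for ago1-27. The ago1-27 and se-1 arrays overlapped with those of no other genotype, whereas both Col-0 values fell inside the range of se-1 p35S::MIR156. As a share of the Col-0 mean, PYK10 was lowest in ago1-27 at 10.04%, while se-1 kept 47.3% and se-1 p35S::MIR156 had 117%.

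JAL33 (AT3G16450, chromosome 3, 5588292 to 5590085) gave 320 and 321 in Col-0. The signals were lower on the se-1 arrays (226 and 242) and lowest on those of ago1-27 (58.7 and 69.3), and highest with the transgene (515 and 589). No arrays of different genotypes overlapped, so the order from the line with the transgene down through Col-0 and se-1 to ago1-27 held on every array. JAL34 (AT3G16460, chromosome 3, 5592491 to 5595912), the next protein-coding gene along the chromosome, gave 221 and 263 in Col-0. Its se-1 arrays read 139 and 178, its ago1-27 arrays 59.5 and 63.9, and those of se-1 p35S::MIR156 426 and 456. Its genotypes took the same order, again without overlap. In se-1 p35S::MIR156 the mean was 172% of the Col-0 mean for JAL33 and 182% for JAL34, and in ago1-27 it was 20.0% and 25.5%.

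JAL22 (AT2G39310, chromosome 2, 16414034 to 16416845) followed the order of JAL33 and JAL34, although it belongs to the other lectin type. Its signals were 342 and 396 in Col-0, against 208 and 220 for se-1 arrays, 451 and 512 for those of se-1 p35S::MIR156, and 46.0 and 69.4 for ago1-27. None of the genotypes overlapped. The lower ago1-27 array was 1.35 times the highest signal that bacterial control probe sets gave on the same array, so JAL22 was close to the measurable floor there, while the lowest such multiple in ago1-27 was 1.72 for JAL33, 1.75 for JAL34 and 3.62 for PYK10.

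JAL23 (AT2G39330, chromosome 2, 16419483 to 16422158) gave 146 and 232 in Col-0 and 230 and 315 in ago1-27. The se-1 plants had 393 and 421, and se-1 p35S::MIR156 had 307 and 487. The se-1 arrays lay above both Col-0 arrays and inside the range of se-1 p35S::MIR156. Each pair of neighbours in the order of means (se-1, se-1 p35S::MIR156, ago1-27, Col-0) overlapped. The se-1 mean was 215% of the Col-0 mean, that of se-1 p35S::MIR156 210% and that of ago1-27 144%.

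GTR2 (AT5G62680, chromosome 5, 25165137 to 25168060) gave 382 and 486 in Col-0 and 194 and 200 in ago1-27. The se-1 plants had 221 and 247, whereas se-1 p35S::MIR156 had 395 and 482. The arrays of Col-0 and se-1 p35S::MIR156 overlapped, and those of se-1 and ago1-27 lay below both without overlapping each other. The mean was 53.9% of the Col-0 mean in se-1 and 45.5% in ago1-27. For PYK10, JAL22, JAL33 and JAL34 these mutants lay farther apart.

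**Figure D1:**
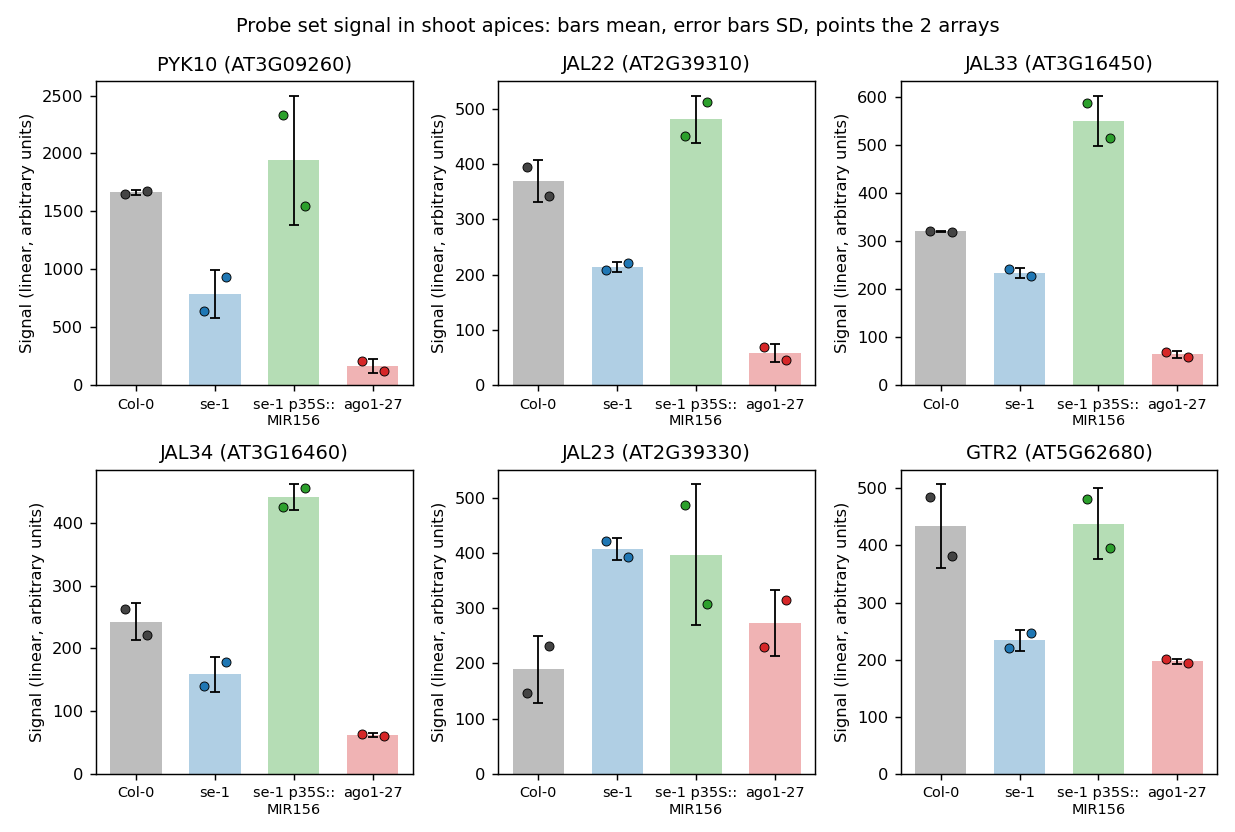
Probe set signal (linear, arbitrary units, axis from 0) of the 6 genes in the 4 genotypes. Bars are means, error bars the SD and points the 2 arrays. PYK10, JAL22, JAL33, JAL34 and GTR2 are lowest in ago1-27, and JAL23 is lowest in Col-0.

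Changes between genotypes were taken from a linear model fitted with limma to log2(signal + 16) of all 15922 probe sets that passed a filter on dim signals. All 6 genes passed it, and their signals were above the background of bacterial controls on all 8 arrays. The comparison of ago1-27 with Col-0 concerns transcripts that depend on AGO1. The log2 change was -3.24 for PYK10 (SE 0.247), -2.40 for JAL22 (SE 0.199), -2.08 for JAL33 (SE 0.18) and -1.73 for JAL34 (SE 0.192), with n = 2 arrays per genotype here and throughout. GTR2 had -1.07 (SE 0.188) and JAL23 0.51 (SE 0.246). Ordered by size, the PYK10 change ranked 3 among all decreases of the 15922 probe sets, JAL22 ranked 6, JAL33 12, JAL34 20 and GTR2 133. The median over the 6 genes was -1.90, and over all tested probe sets 0.02. In this comparison 5 of the 6 genes passed the call rule (adjusted p under 0.05), all lower, where 1.66% of all tested probe sets passed it and 0.911% passed as lower. The GTR2 call was lost without Col-0 replicate 1, and the other 4 held without each array in turn. Arrays did not overlap for 5 of the 6, against 40.8% of all probe sets. The calls and counts of the 6 genes, here and in the comparisons below, are description only. Nothing is read from them, because the genes were picked with these contrasts known.

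Measures of RNA quality and of other tissues were set beside these decreases. The ratio of 3' to 5' actin signals, which reflects RNA integrity and the labelling reaction, was 4.40 and 4.83 in ago1-27 and between 2.81 and 4.22 on the other 6 arrays. Of 21 root markers 5 had a listed probe set, and their summed signal was 77.2 to 112 in ago1-27. It was 123 to 170 for Col-0, 117 to 134 for se-1 and 83.1 to 139 with the transgene. HRGP1 alone gave 46.2 and 70.1 of the ago1-27 sums, and 36.3 and 75.2 of those in Col-0. EXPA7, a root hair expansin gene, was within background on all arrays, and EXPA18 was above it on 2 of 8. Of the 3 root markers tested, 1 had a positive change in ago1-27 against Col-0. The call rule was passed by 1 of them, and by 1.66% of all probe sets. AT1G62510, listed among the root markers with its values known, fell in ago1-27 (log2 change -1.54, limma adjusted p = 0.0291). Its ago1-27 signals of 1.93 and 4.24 were within background, so the size of this change depends on the pseudocount. The call was lost with any 1 array of Col-0 or ago1-27 left out (adjusted p between 0.0774 and 0.223). AT1G49570 had a log2 change of -0.88 (adjusted p = 0.178) and HRGP1 0.08 (adjusted p = 0.946). Pearson's r of log2 signals with PYK10 over the 8 arrays was 0.91 for AT1G62510, 0.82 for AT1G49570 and -0.29 for HRGP1. The 3 measured leaf markers, RCA, PRK and LHCB4.1, summed to 8156 to 10148 in ago1-27 and to 6353 to 7764 on the other arrays. The part of root tissue, leaf tissue or RNA quality in the decreases of the 6 genes was not tested.

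Transcripts that depend on SE are the question when se-1 is set against Col-0. The log2 change of PYK10 was -1.09 (SE 0.247) and that of GTR2 -0.84 (SE 0.188). The lectin genes had -0.74 (SE 0.199, JAL22), -0.57 (SE 0.192, JAL34) and -0.43 (SE 0.18, JAL33). JAL23 went the other way, with a log2 change of 1.08 (SE 0.246). The arrays of the 2 genotypes did not overlap for any of the 6 genes, and 42.9% of all tested probe sets had no overlap. The call rule was passed by 3 of the 6, PYK10 and GTR2 lower and JAL23 higher, against 1.09% of probe sets in both directions. With each array left out in turn, the PYK10 and JAL23 calls held in 1 of 4 fits each and the GTR2 call in 0 of 4. In the direct comparison of ago1-27 with se-1 all 6 genes were lower in ago1-27, from -2.15 for PYK10 (SE 0.247) and -1.66 for JAL22 (SE 0.199) to -0.57 for JAL23 (SE 0.246) and -0.23 for GTR2 (SE 0.188). JAL33 had -1.65 and JAL34 -1.16. Of the 6, 4 passed the call rule in it as lower, against 3.37% of probe sets in both directions and 2.19% as lower. Arrays did not overlap for any of the 6, against 43.3% of probe sets. It shares its arrays with both comparisons against Col-0.

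Comparing the line that carries the transgene with its se-1 parent genotype concerns what the miR156 transgene does where SE is impaired. PYK10 had a log2 change of 1.28 (SE 0.247), JAL34 1.40 (SE 0.192), JAL33 1.18 (SE 0.18), JAL22 1.11 (SE 0.199) and GTR2 0.86 (SE 0.188). JAL23 had -0.07 (SE 0.246). Of the 6 genes 4 passed the call rule as higher, against 0.358% of probe sets in both directions and 0.22% as higher. Arrays did not overlap for 5, against 41.7% in both directions. Nothing is read from these counts, since the genes were picked with their values known. With each array left out in turn, the JAL34 call held in 3 of 4 fits, those of PYK10 and JAL33 in 1 of 4 each and that of JAL22 in 0 of 4. Set against Col-0, the line with the transgene had log2 changes of 0.19 for PYK10 and 0.02 for GTR2, whose arrays overlapped. They were 0.37 for JAL22, 0.75 for JAL33, 0.83 for JAL34 and 1.01 for JAL23, whose arrays did not. That made 4 of 6 without overlap, against 41.1% of all probe sets. In limma 0 of the 6 passed the call rule in this comparison, against 0.842% of probe sets.

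**Figure D2:**
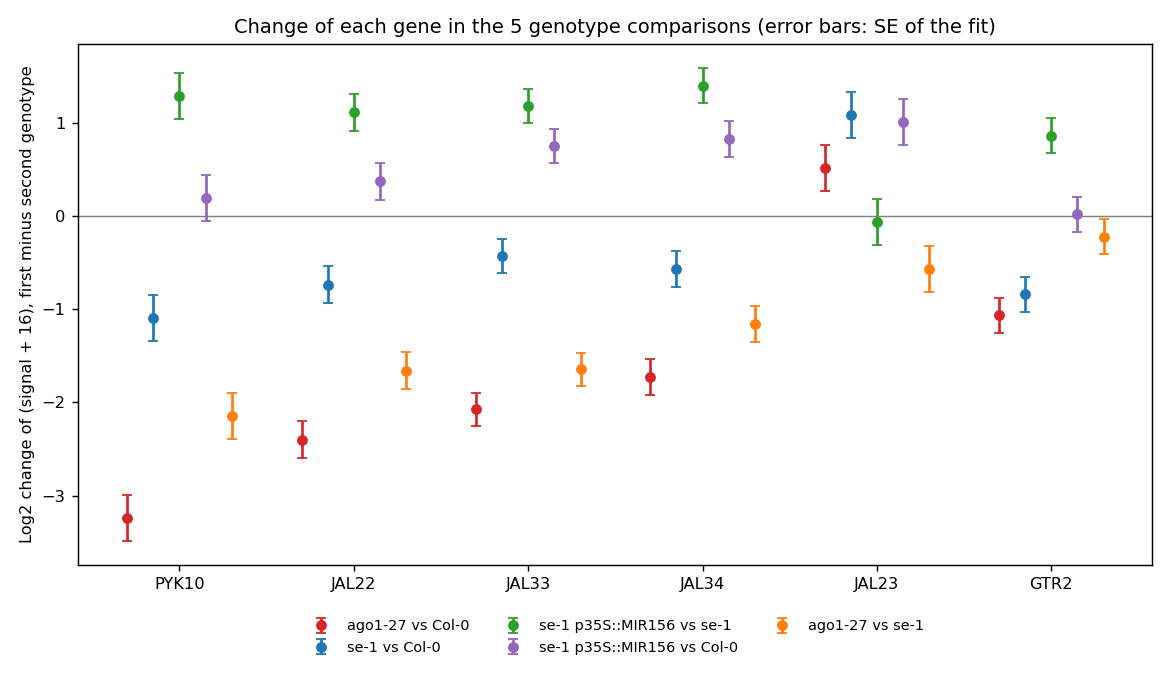
Log2 change of (signal + 16) of the 6 genes in the 5 genotype comparisons, first minus second genotype. Points are fitted changes and error bars their SE. PYK10, JAL22, JAL33, JAL34 and GTR2 share the signs of their fitted changes in all 5 comparisons. With the transgene against Col-0 the signs of PYK10 (0.19) and GTR2 (0.02) are not settled, since they turned with 1 array left out. JAL23 differs from the other genes against Col-0 in both mutants, and its change with the transgene against se-1 is -0.07 (SE 0.246).

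PYK10, JAL22, JAL33 and JAL34 had similar profiles over the 8 arrays. Pearson's r of log2 signals with PYK10 was 0.98 for JAL22, 0.97 for JAL33, 0.94 for JAL34 and 0.89 for GTR2, and 0.02 for JAL23. Among 15921 other probe sets ranked by likeness to PYK10, JAL22 took rank 3, JAL33 rank 7 and JAL34 rank 30. These values describe 8 arrays in 4 groups, and most of the variation they share lies between genotypes. The genes were picked with their values on these arrays known, so nothing is read from their r values and ranks. Within genotypes the likeness was not seen in most pairs: for 5 of the 6 pairs among these 4 genes the replicates differed in the same direction in 2 of 4 genotypes, and for the pair JAL22 and JAL34 in 4 of 4.

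Apart from the 6 genes and among 8781 tested probe sets with a listed gene, those most like PYK10 over the 8 arrays were AT5G59330, AT2G20420, AT4G11190, MPPBETA, AT3G11780 and AT5G51280, with r between 0.96 and 0.97. Likeness in shape came with very different sizes. AT5G59330 had a mean of 456 ± 37.0 in Col-0 and was within background in ago1-27, at 4.40 ± 0.823 (SD, n = 2). MPPBETA, which encodes a subunit of the mitochondrial processing peptidase, went from 2153 ± 94.3 to 1717 ± 13.1 (SD, n = 2). For JAL23 the most alike were AT4G31170, AT1G34470, AT2G21430 and AT1G63720 (r between 0.94 and 0.96). For GTR2 they were RPN12a, a proteasome subunit gene, AT2G25870, AT2G31800 and AT3G54130 (r between 0.94 and 0.97).

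The 4 lectin genes lie in 2 tandem groups. JAL33 and JAL34 are separated by 2405 bases and no other protein-coding gene. JAL22 and JAL23 are separated by 2637 bases, with AT2G39320 between them, which was too dim to be tested, with mean signals of 11.5 to 18.4. The log2 ratio of JAL33 to JAL34, taken relative to its Col-0 mean, lay between -0.43 and 0.39 on all arrays. Both ago1-27 values (-0.29 and -0.43) were below the Col-0 range of -0.12 to 0.12, as was replicate 2 of se-1 p35S::MIR156 (-0.23). Above that range was 1 se-1 array. The ratios use signals without a pseudocount, and JAL22, JAL33 and JAL34 stood near background in ago1-27. The log2 ratio of JAL22 to JAL23, also relative to Col-0, was -2.02 and -1.83 for the se-1 arrays and -2.73 and -3.77 for those of ago1-27. With the transgene it was -1.11 and -0.26, next to -0.44 and 0.44 in Col-0 itself. These 2 neighbouring lectin genes of the same type thus changed unequally in both mutants.

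Beyond the tandem groups, the 5 protein-coding genes on either side of each of the 6 genes came to 41 genes, of which 14 had a listed probe set and 9 were tested. In limma 0 of the 9 were called in any of the 5 comparisons, where 0.358% to 3.37% of all probe sets were called. An unadjusted p under 0.05 was found for 1 of the 9 in both comparisons with ago1-27 and in the transgene against se-1. It was found for 0 in the others. The share of all probe sets with an unadjusted p under 0.05 was not counted. Nothing is therefore read from such counts, here and below. AT3G09250, whose annotation overlaps PYK10 by 138 bases, had means of 272 ± 29.3 in Col-0 and 224 ± 39.1 in ago1-27 (SD, n = 2). JAL34 overlaps the lectin gene JR1 by 631 annotated bases and GTR2 overlaps HA11 by 73, and neither JR1 nor HA11 had a listed probe set. The reference table gives no strand, so a contribution of the overlapping gene to a probe set was not tested.

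**Figure D3:**
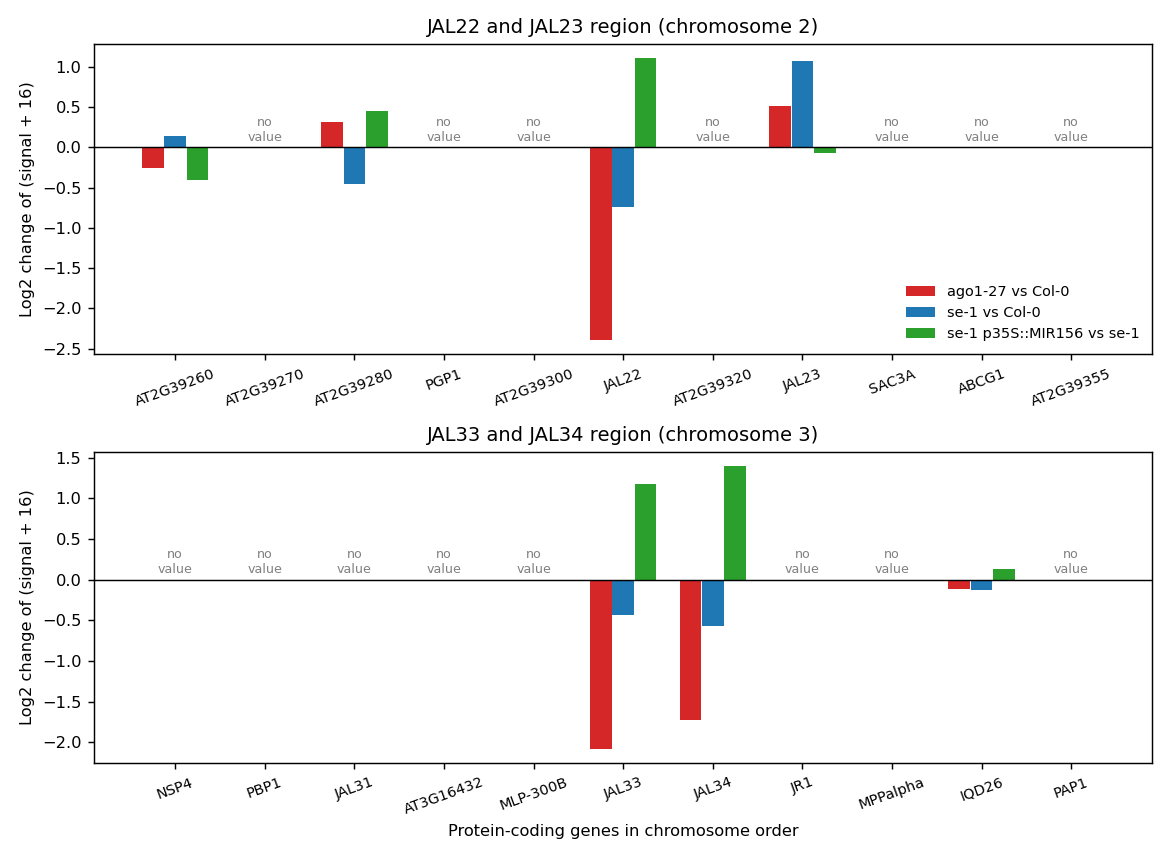
Log2 change of (signal + 16) in 3 comparisons for the protein-coding genes around JAL22 and JAL23 and around JAL33 and JAL34, in chromosome order. "No value" marks genes with no listed probe set or a signal too dim to be tested. JAL33 and JAL34 have the same sign in each of the 3 comparisons. JAL22 and JAL23 have opposite signs against Col-0 in both mutants. With the transgene against se-1 the JAL23 change is -0.07 (SE 0.246), so its sign is not settled.

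Other genes of the same pathways were measured only in small part. A list of 83 genes covered ER bodies, PYK10 complexes, jacalin lectins and glucosinolate transport, synthesis and turnover, with the 6 genes left out. It had 11 with a listed probe set, of which 8 were tested. None of the 4 other genes on the jacalin lectin list had a listed probe set, so the pattern could not be followed to them. All 8 had lower means in ago1-27 than in Col-0 on the log2 scale, with a median change of -0.41. Of them 1 was called, as lower, against 1.66% of all probe sets in both directions and 0.911% as lower. The arrays of ago1-27 and Col-0 did not overlap for 5 of the 8, all lower, while 18.5% of all probe sets were lower without overlap. An unadjusted p under 0.05 was found for 4 of the 8, with no share over all probe sets to set beside it. In se-1 the median was -0.03, with 4 positive and 4 negative changes. Against Col-0, se-1 had 0 called by limma, where 1.09% of all probe sets were called, and 2 with an unadjusted p under 0.05.

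The gene called in ago1-27 was NAI2, which encodes an ER body component required for ER bodies to form. It gave 540 and 541 in Col-0 and 193 and 277 in ago1-27. The se-1 arrays read 280 and 453, those of se-1 p35S::MIR156 672 and 776. All arrays of the 4 genotypes were apart, in the order shown by JAL22, JAL33 and JAL34. NAI2 fell in ago1-27 by 1.17 on the log2 scale (SE 0.224, limma adjusted p = 0.0133). Leaving out replicate 1 of Col-0 raised the adjusted p to 0.128, replicate 2 of Col-0 to 0.126 and replicate 1 of ago1-27 to 0.0764. It was 0.0835 when dim probe sets were kept and 0.0521 when eBayes used no trend, so the call was lost under each of these 5 settings. Its log2 change was -0.58 in se-1 (adjusted p = 0.288) and 0.99 with the transgene (adjusted p = 0.0942), neither past the threshold.

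NAI1, the basic helix-loop-helix transcription factor gene needed for PYK10 expression and ER bodies in seedlings, had another profile. It gave 52.6 and 66.4 in Col-0 and 53.1 and 63.1 in ago1-27. The se-1 arrays read 105 and 111, those of se-1 p35S::MIR156 96.5 and 108. The ago1-27 arrays lay inside the Col-0 range, and those of both lines with se-1 lay above it. Its log2 change was -0.02 in ago1-27 (SE 0.213, limma adjusted p = 0.98) and 0.72 in se-1 (SE 0.213, adjusted p = 0.141). Over the 8 arrays r of NAI1 was 0.40 with PYK10 and 0.76 with JAL23. AT1G54020, from the list of complex proteins, also had r of 0.79 with JAL23 and 0.49 with PYK10. Its log2 changes were 0.70 in se-1 (adjusted p = 0.528) and -0.11 in ago1-27 (adjusted p = 0.944).

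GTR1, the partner transporter of GTR2, gave 300 and 315 in Col-0 and 158 and 206 in ago1-27. The se-1 arrays read 249 and 307, those of se-1 p35S::MIR156 318 and 462. Its ago1-27 arrays lay below all others, with a log2 change of -0.72 (SE 0.211, limma adjusted p = 0.12), and its se-1 arrays overlapped with Col-0 (log2 change -0.14, adjusted p = 0.869), where those of GTR2 did not. Of the glucosinolate synthesis genes 4 were tested (3 of 28 on the aliphatic list and 1 of 3 on the core list). In limma 0 of the 4 were called in any comparison, where 0.358% to 3.37% of all probe sets were called. AOP3, of the aliphatic list, was too dim to be tested (26.6 ± 1.15 in Col-0 and 6.99 ± 5.63 in ago1-27, SD, n = 2). BCAT4, an aminotransferase that starts methionine chain elongation, had a log2 change of -0.46 in ago1-27 (adjusted p = 0.261). UGT74B1, the glucosyltransferase of the core pathway, had -0.52 (adjusted p = 0.256). GSTU20, a glutathione transferase gene of the aliphatic list, had -0.35 (adjusted p = 0.484), and AT2G31790 of that list -0.28 (adjusted p = 0.665). Of the 16 indole glucosinolate genes none had a listed probe set, and the turnover gene BGLU28 was within background on all arrays.

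With the transgene in se-1, 7 of the 8 pathway genes had positive changes, with a median of 0.53, and 6 had higher arrays without overlap, against 17% of all probe sets. In limma 0 were called, against 0.358% of all probe sets, and 5 had an unadjusted p under 0.05. Against Col-0 all 8 were higher in se-1 p35S::MIR156, without overlap in all 8, against 18.5% of probe sets, with a median of 0.42. In limma 0 were called, against 0.842% of probe sets, and 4 had an unadjusted p under 0.05. In ago1-27 against se-1 all 8 were lower, with a median of -0.56. Arrays did not overlap for 5, all lower, against 43.3% of all probe sets in both directions. The share that was lower without overlap was not counted for this comparison. In limma 0 were called, against 3.37% of probe sets in both directions and 2.19% as lower, and 4 had an unadjusted p under 0.05. The share of all probe sets with an unadjusted p under 0.05 was not counted in these comparisons, so nothing is read from those counts.

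Genes of the general ER and of jasmonate signalling, which induces several of these defence genes, were also measured only in part. The 2 tested ER chaperone genes of 9, the calreticulin gene CRT1b and ATERDJ3B, had log2 changes of -0.23 (limma adjusted p = 0.604) and -0.02 (adjusted p = 0.988) in ago1-27. MYC3 and MYC4, jasmonate-responsive transcription factor genes and the only tested members of a list of 20, had -0.08 (adjusted p = 0.918) and 0.58 (adjusted p = 0.333). In limma 0 of these 4 were called in any of the 5 comparisons, where 0.358% to 3.37% of all probe sets were called. Of the 20 pairs of a gene and a comparison, 4 had an unadjusted p under 0.05, again with no share over all probe sets beside it.

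**Figure D4:**
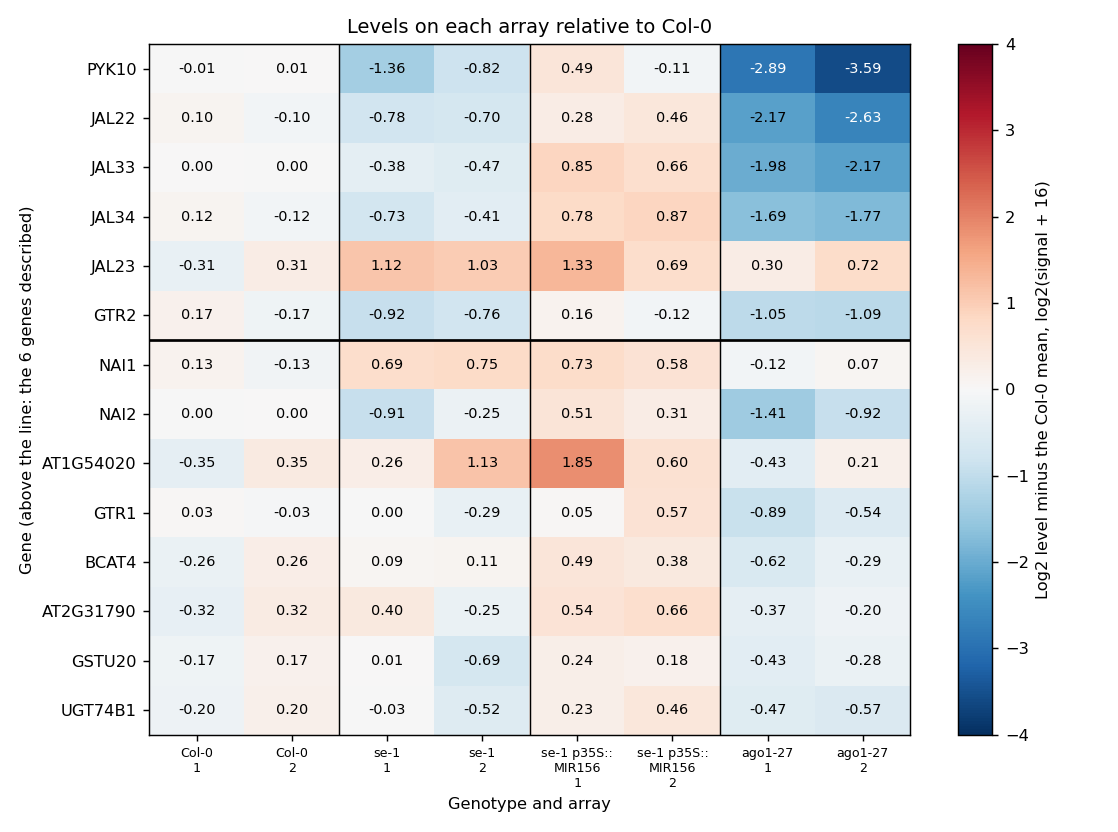
Level of each gene on each array minus its Col-0 mean, as log2(signal + 16), for the 6 genes (above the line) and the 8 tested pathway genes (below it). Blue is lower and red higher than Col-0. NAI2 and GTR1 are low on both ago1-27 arrays, and NAI1 is near Col-0 there.

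Across the series, replicate arrays had r of 0.967 to 0.980 over tested probe sets, and medians of 76.6 to 82.4. The highest bacterial control signal was 14.2 to 34.1 per array. The SE probe set read 132 ± 4.56 in Col-0 and 117 ± 0.0955 in se-1, with a log2 change of -0.15 (SD, n = 2; limma adjusted p = 0.839). With the transgene, on the same lesion, it read 146 ± 22.0 (SD, n = 2), a log2 change of 0.13 from Col-0 (limma adjusted p = 0.927). Whether its probes lie at the lesion was not examined, and AGO1 is not analysed here. Of 14 shoot apex markers 3 had a listed probe set: LAS was above background on 7 of 8 arrays, and CLV3 and UFO on 1 each, so the apex label rests on little here. None of 6 phloem markers had one.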

How the data were processed

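Total RNA was amplified, biotin-labelled and hybridized to ATH1 arrays, per the labels. The deposited values are linear signal intensities. The submitters' processing notes name GCOS, with no version. The authors scaled each array, and the 2% trimmed mean was 200.02 on all 8. No detection calls were used, and the small number of arrays limits the precision. The 64 control probe sets were left out, and the highest of 27 bacterial controls served as background. Of 22746 probe sets, the lowest 30% by mean log2(signal + 16) were left out. A mean per genotype was fitted with limma 3.58.1 in R 4.3.3 (eBayes with a trend, 4 residual and 11.27 prior degrees of freedom), with Benjamini-Hochberg adjustment over 15922 probe sets per comparison and two-sided p-values. The spread behind the p-values is that between these arrays, which may be technical. Genes came from a probe annotation (13436 probe sets paired with 1 gene) joined to the TAIR10.1 gene table.

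The members, the lists and the tests were chosen with earlier results of these data known. The genes named were the 6 members, up to 3 called genes per list and comparison, the genes most like PYK10, JAL23 and GTR2, called neighbours, and SE. Tested genes of the pathway, chaperone and jasmonate lists that were not called are given as values. Alternatives changed the pseudocount, filter, normalization, eBayes settings, genotypes in the fit, replicate block, or left out 1 array. The fit was tested on simulated data. Sequence features were not analysed here.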

Additional observations from a re-analysis of the deposited data

How the results depend on the processing

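With each array of the compared genotypes left out in turn, PYK10 ranged from -3.59 to -2.89 (log2) in ago1-27 against Col-0 and JAL22 from -2.63 to -2.17. Signs turned only for values near 0: JAL23 with the transgene against se-1 (-0.39 to 0.25), and PYK10 (-0.11 to 0.49) and GTR2 (-0.15 to 0.19) in se-1 p35S::MIR156 against Col-0. Pseudocount 64 shrank JAL22, JAL33 and JAL34 in ago1-27 against Col-0 to -1.83, -1.59 and -1.28. Of 9 other settings, the call rule in se-1 against Col-0 was met in 4 for PYK10, 5 for JAL23 and 6 for GTR2, with settings that lost it including no filter and eBayes without a trend for all 3. With the transgene against se-1 it was met in 6 of 9 for PYK10, 7 for JAL22, and 9 each for JAL33 and JAL34. In ago1-27 against Col-0 it was met in 9 of 9 for all 5 genes called there. In se-1 p35S::MIR156 against Col-0 it was met in 2 of 9 each for JAL33 and JAL34 and in 1 for JAL23. There it was met in 0 of 9 for PYK10, JAL22 and GTR2. These tallies are description only, because the 6 genes were picked with these contrasts known.

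Counts of probe sets called varied more. In se-1 against Col-0 the count was 173, with 32 to 89 without 1 array and 68 with no filter. In ago1-27 against Col-0 it was 265, with 81 to 337 without 1 array and 98 with no filter. With the transgene against se-1 it was 57, with 10 to 41 without 1 array, 25 with eBayes without a trend and 15 with no filter. In se-1 p35S::MIR156 against Col-0 it was 134, with 14 to 42 without 1 array, 28 with no filter, 75 with eBayes without a trend and 280 with only the 2 genotypes compared. In ago1-27 against se-1 it was 537, with 257 to 538 without 1 array, 249 with no filter and 263 with only the 2 genotypes compared. The cause was not tested.

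The pathway count in ago1-27 against Col-0, 1 gene, was 0 when dim probe sets were kept, 0 under eBayes without a trend, and 0 to 1 without 1 array. With the transgene it was 0, and 0 to 1 without 1 array. The labels give no shared batch for a replicate number, and same-numbered arrays deviated with r between -0.21 and 0.11 over probe sets. With the replicate block, counts were 187, 271, 59, 143 and 518 probe sets in the same order. In ago1-27 JAL22, JAL33 and JAL34 stood near background (lowest array at 1.35, 1.72 and 1.75 times the highest bacterial control), which limits their folds.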
